A study of Mus musculus with 4 samples.

Results

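The Dll1-3 line of mutant neurospheres was set against wild type on 2 of the 4 arrays of the series, and 22707 genes were described on both of them. Neurospheres are free-floating cultures grown from neural stem cells, here in serum-free medium with EGF. Mutant and wild-type cultures both came from 129/Sv mice crossed with C57BL/6, and the mutant genotype is given only as Dll1-3 mutant. Which part of Dll1 is altered, the age of the mice and how the line was derived are not stated in the sources used here. The other 2 arrays compared the Dll1-5 mutant line, on the same background, with wild type. The arrays were chosen by their label, and each ratio was oriented as mutant over wild type on the log2 scale, so that a value of 1 is a 2-fold higher level in mutant RNA. Mutant RNA was in the red dye (Cy5) in replicate 1 and in the green dye (Cy3) in replicate 2.

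The design text names 2 biological replicates, each of RNA pooled from 3 and each dye-swapped, and the titles number the arrays of a line as replications 1 and 2. It does not settle whether the 2 Dll1-3 arrays hold the same pools or different ones. They were read here, as the more cautious choice, as 1 pooled replicate measured with the dyes both ways, and on that reading there is no replicate error to test with. The fit that takes the arrays as separate samples is given in the closing section. A gene was counted as higher or lower where both arrays put it at least 2-fold to the same side, and ± gives the distance of each array from the mean of both. That distance holds the dye and array error, and whether it also holds spread between cultures is not settled. Between 81.2% and 82.1% of the 41174 probes gave a signal well above background, depending on channel and array. The arrays' number limits the precision. In RNA from whole cultures, fewer cells of a type and less RNA per cell cannot be told apart.

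Dll1 encodes a transmembrane ligand that activates Notch receptors on neighbouring cells. An activated receptor is cut, its intracellular part enters the nucleus and joins the DNA-binding protein Rbpj, and genes of the Hes and Hey families are switched on. These encode repressors that keep neural progenitors from differentiating, and Id proteins, inhibitors of basic helix-loop-helix factors, act in the same setting.

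Hes5 is the textbook direct target of this pathway in neural progenitors. Its promoter is shown because the Hes5 value below is among the lowest of all genes. The sequence is that of RefSeq, build GRCm38.p6, and covers the 250 bases before the start of the gene, 5′ to 3′ on the gene's strand. Capitals mark TGGGAA, the core of the Rbpj motif, searched on both strands.
Hes5, chr4:154960673-154960922, + strand: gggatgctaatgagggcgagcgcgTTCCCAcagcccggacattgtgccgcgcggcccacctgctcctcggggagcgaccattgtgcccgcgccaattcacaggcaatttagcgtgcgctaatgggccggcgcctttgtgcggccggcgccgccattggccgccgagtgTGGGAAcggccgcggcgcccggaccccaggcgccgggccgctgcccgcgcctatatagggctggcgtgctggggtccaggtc
The motif occurred 2 times, as TGGGAA from 82 to 77 bases before the start and on the other strand, as TTCCCA, from 226 to 221 bases before it. It was in the same window of 6510 of 27025 genes with a promoter in that table (24.1%), and of 3 of the 6 measured Hes and Hey genes that had one. Hey1 and Hes1 are not among them. A match is a description of letters, not of binding.

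The targeted gene was read first. Dll1 was at -3.31 and -3.22 in Dll1-3, a mean of -3.27 ± 0.05 or 9.63-fold lower than wild type. Its normalised intensity was 634 and 718 in mutant RNA against 6307 and 6705 in wild-type RNA, so both mutant channels were low and both were still well above background. Its probe matches chromosome 17, from 13371312 to 13371371 in the coordinates of the array files, which name no build. Whether it lies in an altered part of the gene is not stated, so it checks the labels only as far as a lower signal does.

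Hes5 and Hey1 were far lower in Dll1-3 mutant than in wild-type RNA. No other Hes or Hey gene was 2-fold lower on both arrays, though several were dim in wild-type RNA as well. Hes5 was at -4.89 and -5.01, 30.9-fold lower in the mean, with normalised intensities of 541 and 460 against 16075 and 14805. Hey1, also induced by Notch, was at -3.93 and -3.66, with 262 and 304 against 3994 and 3844. No mutant channel came near a wild-type channel for either gene. Of the 12 members of the Hes and Hey list measured, 0 were 2-fold higher on both arrays and these 2 were 2-fold lower, where 4.52% of all genes were higher and 6.16% lower. The median of the list was 0.10, beside 0.00 for all genes. Hes1, a Notch target that is also under other control, was at 0.50 and 0.55, Hes2 at 0.49 and 0.37 and Bhlhe40 at 0.55 and 0.56. Hes6, which promotes neuronal differentiation, stood at 0.11 and 0.25. Heyl, Hes3, Hes7 and Bhlhe41 lay between 0.03 and 0.18 on each array. Their wild-type intensity was only 87.5 to 161, which includes the offset of 50, so a lower level could hardly show. Hey2 was as dim in wild-type RNA, at 100 and 125. Mutant RNA gave no Hey2 signal well above background on either array, and Hey2 was at least 1.65-fold lower, and Nrarp, a feedback inhibitor of Notch, was at -0.47 and -0.59. The other Hes2 probe was at -0.38.

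Dll1 was not the only ligand gene with a lower signal. Dll3, which acts against Notch signalling in the cell that makes it, was at -2.93 and -2.72. Dner, a ligand-like membrane protein of neural cells, was at -1.14 and -1.22. With Dll1, the targeted gene, 3 of the 8 ligand genes measured were 2-fold lower and 0 were higher. Over all genes, 6.16% were lower and 4.52% higher. Dner was not 2-fold with median centring, at -0.69. Jag1 lay on the other side at 0.81 and 0.67, short of 2-fold, with its other probe at 0.26. Dll4 was at -0.50 and -0.32, and Jag2, Dlk1 and Dlk2 lay between -0.09 and 0.07 on each array, with the other Dlk1 probe at 0.14. Among the 4 receptors 0 were 2-fold on both arrays: Notch3 was at -0.90 and -1.21, Notch1 at -0.40 and -0.11, Notch2 at -0.05 and -0.10 and Notch4 at 0.57 and 0.59. The other probes of Notch1 and Notch2 lay within 0.5 of 0 as well.

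**Figure D1:**
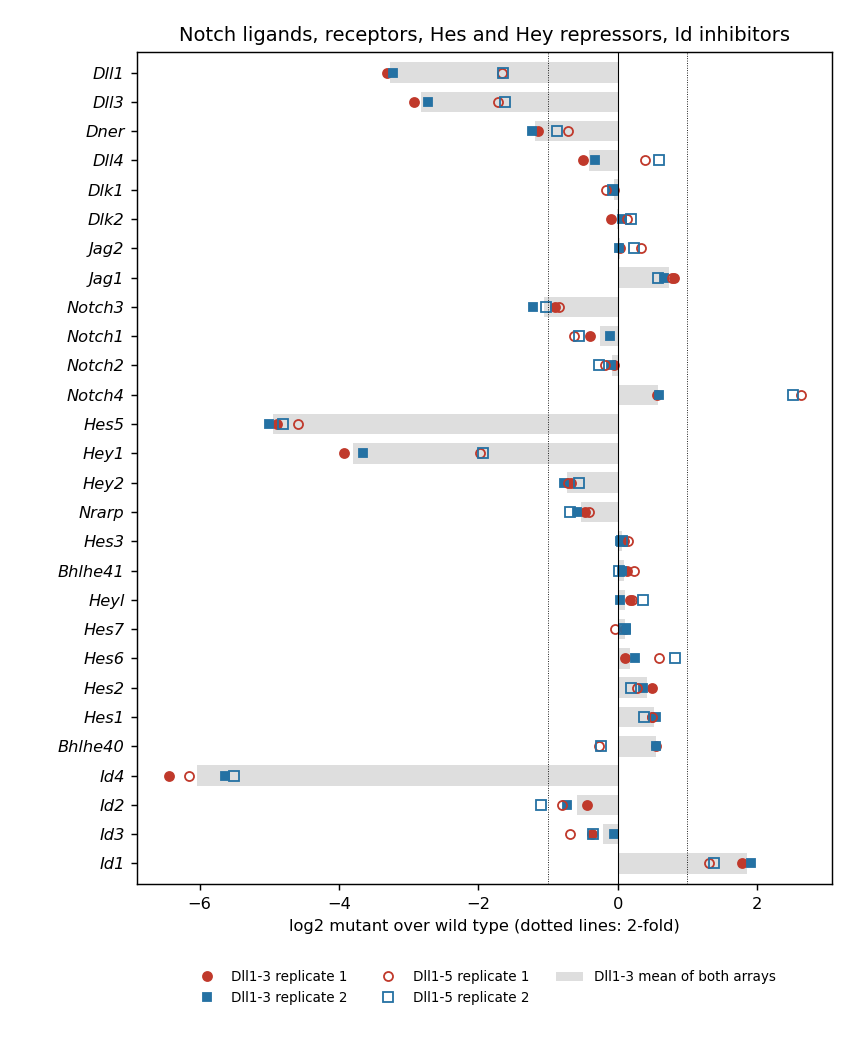
Log2 mutant over wild type (horizontal axis) of Notch ligands, receptors, Hes and Hey repressors and Id inhibitors, with each array as a point, filled for Dll1-3 and open for Dll1-5, and bars for the mean of both Dll1-3 arrays. Dll1, Dll3, Dner, Hes5, Hey1 and Id4 lie beyond 2-fold lower on both Dll1-3 arrays and Id1 beyond 2-fold higher.

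Of 39 genes that handle the ligands or carry the signal, 5 (12.8%) were 2-fold on both arrays in either direction, near the 10.7% of all genes. Of 17 genes of fringe glycosyltransferases and trafficking, 1 was 2-fold higher and 1 lower. These are both ubiquitin ligase genes that act on Notch ligands: Mib1 was at -1.87 and -1.87, and Neurl1b at 1.76 and 1.96. The 2 other Mib1 probes were at -0.72 and -0.64. Of 22 signal transduction genes 0 were higher and 3 lower. Kat2b, an acetyltransferase of the activation complex, was at -1.85 and -1.28, with its other probe at -0.57. The co-repressor Tle4 was at -1.29 and -1.65, and Psen2, a catalytic subunit of gamma-secretase, at -1.28 and -1.19. With median centring in place of loess, Mib1, Tle4 and Psen2 were no longer 2-fold on both arrays. Rbpj itself was at -0.07 and 0.02.

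The 4 Id genes did not share a direction. Id4 was at -6.44 and -5.64, with normalised intensities of 65.5 and 122 in mutant RNA against 5698 and 6082 in wild-type RNA, and its other probe at -4.05. Id1 was at 1.79 and 1.92, with 3229 and 3401 against 932 and 898, and its other probe was at 1.89. Id2 was at -0.44 and -0.73 and Id3 at -0.36 and -0.05. Thus Id1 was higher on both arrays while Id4 was close to background in mutant RNA.

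Over all 22707 genes, 1027 (4.52%) were at least 2-fold higher and 1399 (6.16%) at least 2-fold lower on both arrays. The lower side reached farther: 311 genes were at least 4-fold lower against 137 higher, and 21 were at least 16-fold lower against 1 higher. Another 922 genes were 2-fold on 1 array only, and 0 were 2-fold in opposite directions. The arrays lay a median of 0.07 from their mean, and 0.36 at the 99th percentile. Of the 2426 genes, 9 higher ones were not well above background in wild-type RNA on either array and 30 lower ones not in mutant RNA, so their sizes are bounds.

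**Figure D2:**
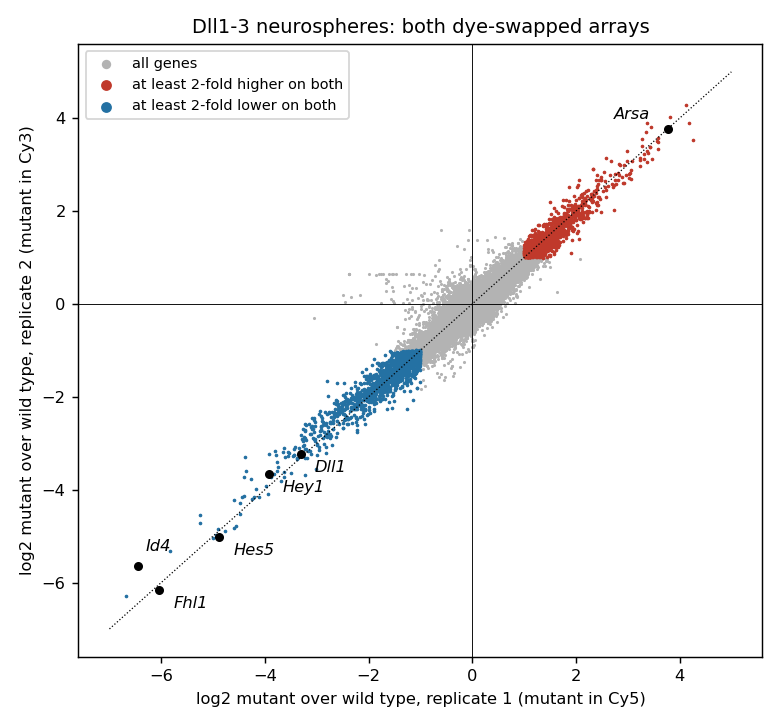
Log2 Dll1-3 over wild type of each gene on replicate 1 (horizontal axis) against replicate 2 (vertical axis), with genes at least 2-fold on both arrays in red (1027 higher) and blue (1399 lower), and the dotted line for equal values. The marked genes Dll1, Hes5, Hey1, Fhl1 and Arsa lie close to the line, and the lower side extends farther than the higher. Id4, also marked, lies farther off, with each array 0.40 from its mean, beyond the 99th percentile of 0.36.

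The lowest values belonged to Kcnd2, Fhl1 and Id4. Kcnd2, a voltage-gated potassium channel subunit, was at -6.68 and -6.29, well above background in mutant RNA on 1 of the 2 arrays, and its other probe was at -1.85. Fhl1, a LIM domain protein, was at -6.05 and -6.15, 68.6-fold lower in the mean, with intensities of 226 and 226 against 14949 and 16113. Its probe lies on chromosome X from 51547960 to 51548019. Prss23, a secreted serine protease, followed at -5.83 and -5.33, although its other probe was at -0.33. Agt, the angiotensinogen gene that astrocytes express, was at -5.02 ± 0.02, and Cntn1, a neural adhesion molecule, at -4.95 and -4.98. The zinc finger factor Zic1 was at -5.26 and -4.55, the peptide processing enzyme Cpe at -4.91 and -4.84 and the membrane protein Ttyh1 at -4.78 and -4.89. Lrrn1 was at -4.60 and -4.82, Apcdd1, a Wnt inhibitor, at -4.55 and -4.79, and Nkain4 at -4.47 and -4.52. Ppp2r2b, a regulatory subunit of protein phosphatase 2A, was at -4.45 and -4.16 and Kank1 at -4.40 and -4.13. For some of them other probes gave far smaller values: the single other probe of Lrrn1 was at -0.15 and that of Apcdd1 at 0.33, 1 of the 4 others of Ttyh1 at -0.24, and 2 of the 3 others of Ppp2r2b within 0.5 of 0. The other probe of Nkain4 was at -1.64, and those of Kank1 at -1.13 and -0.79.

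The highest value was that of Scrn1, secernin 1, at 4.13 and 4.29, or 18.5-fold. Its normalised intensity was 2606 and 2161 in mutant RNA against 149 and 110 in wild-type RNA. Fkbp10, a prolyl isomerase that helps fold collagen, was at 3.81 and 4.02. Arsa, the lysosomal sulfatase that degrades sulfatides, was at 3.78 and 3.76, with 3603 and 3292 against 263 and 243, and its probe lies on chromosome 15 from 89525509 to 89525568. Ndrg1, a gene that responds to hypoxia and stress, was at 3.38 and 3.90. Mnd1, a meiotic recombination gene, was at 3.45 and 3.81, and the membrane protein Gypc at 3.59 and 3.58. Slc6a6, the taurine transporter, was at 3.57 and 3.50. The interferon-inducible Ifi27l2a was at 3.58 and 3.49 and the chemokine Cxcl10 at 3.39 and 3.25. Esx1, an X-linked homeobox gene of the placenta and testis, was at 3.35 and 3.70 and Hoxa7 at 3.58 and 3.34. The others of the 16 highest were Trib3 (3.28 and 3.55), Ube2t (3.43 and 3.39), the actin-regulating enzyme Mical1 (3.43 and 3.38), osteopontin, Spp1 (3.28 and 3.39), and lipoprotein lipase, Lpl (3.37 and 3.29). Where these genes had another probe, it gave a smaller value. It was at 2.34 for Scrn1, 2.04 for Ifi27l2a, 1.83 for Lpl, 1.66 for Slc6a6, 1.51 for Trib3 and 0.15 for Ube2t.

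**Figure D3:**
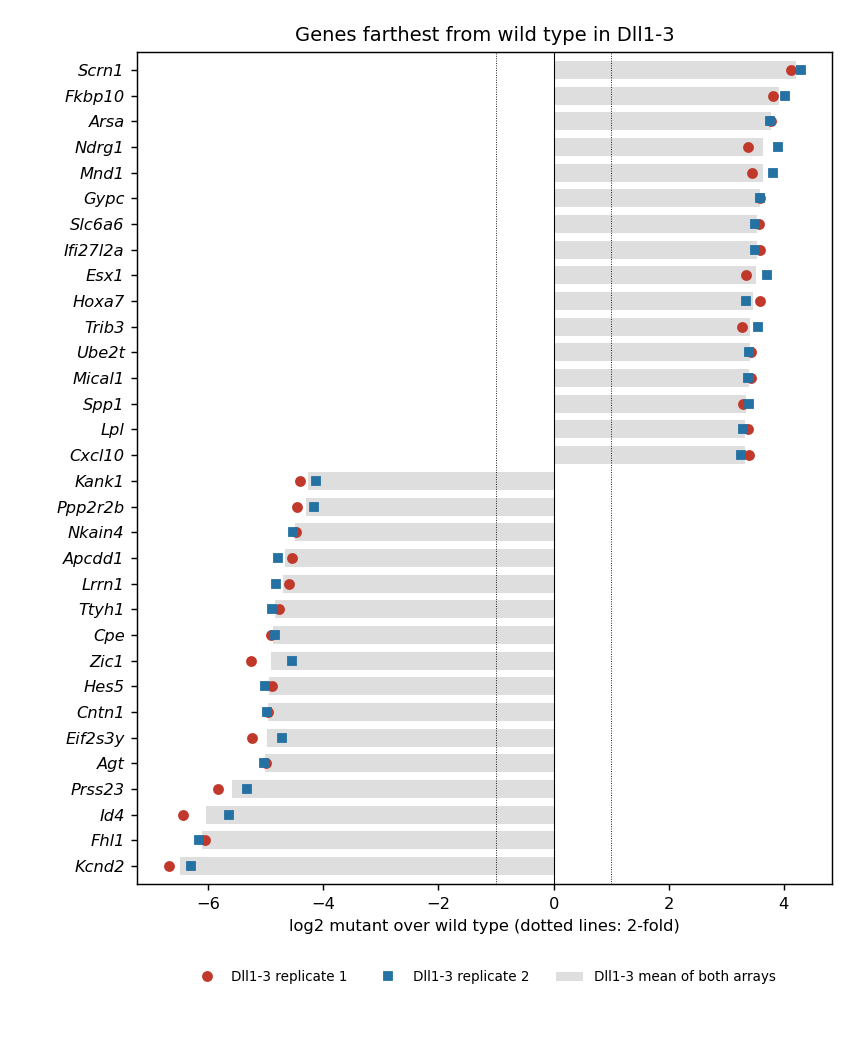
Log2 Dll1-3 over wild type (horizontal axis) of the 16 highest and 16 lowest genes among those at least 2-fold on both arrays, with a circle for replicate 1, a square for replicate 2 and a bar for their mean. The arrays of each gene lie on the same side of 0, from Scrn1 at 4.21 to Kcnd2 at -6.49.

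Cell cycle genes were higher in Dll1-3 as a group. The count of each list here and below stands beside the 4.52% of all genes that were higher and the 6.16% lower. Of 119 measured members of 3 lists together, 94 were 2-fold higher and 1 was lower, with a median of 1.59. Mitosis and spindle checkpoint genes had 48 of 51 higher and 0 lower, with a median of 1.77 on replicate 1 and 1.73 on replicate 2. Kif20a, a kinesin of cell division, was at 3.02 and 2.71, the checkpoint kinase Bub1 at 2.41 and 2.54 and the kinesin Kif18a at 2.38 and 2.40. DNA replication genes had 32 of 42 higher and 0 lower, with a median of 1.47 on replicate 1 and 1.45 on replicate 2. Thymidylate synthase, Tyms, was at 2.41 and 2.48, with 1 of its 2 other probes at 0.06 and the polymerase subunit Pold1 at 2.29 and 2.23. Cyclins and cyclin-dependent kinases had 14 of 26 higher and 1 lower. Cyclin D2, Ccnd2, was at 2.91 and 2.61, cyclin D1, Ccnd1, at 2.42 and 2.14, and Cks2, a subunit that binds the kinases, at 2.78 and 2.59. The exception was the mitotic cyclin gene Ccnb2, at -1.85 and -1.58, while its paralog Ccnb1 was at 2.21 and 1.92. Ccnb2 was represented by 1 probe, with intensities of 210 and 265 against 756 and 793.

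The promoters of Cdc20, a mitotic activator of the anaphase-promoting complex at 1.45 and 1.21, and of Ccnb2 are shown because Ccnb2 lay on the other side from the mitosis genes. Both are the 250 bases before the start, from RefSeq GRCm38.p6, on the gene's strand, with TTTGAA in capitals (searched on both strands), the letters of the cell cycle homology region through which mitotic genes are known to be controlled.
Cdc20, chr4:118437344-118437593, - strand: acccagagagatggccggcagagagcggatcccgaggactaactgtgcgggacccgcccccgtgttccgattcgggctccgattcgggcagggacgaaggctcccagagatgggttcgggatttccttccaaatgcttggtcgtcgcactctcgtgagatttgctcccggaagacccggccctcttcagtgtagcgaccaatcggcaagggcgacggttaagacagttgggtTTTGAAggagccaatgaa
Ccnb2, chr9:70421555-70421804, - strand: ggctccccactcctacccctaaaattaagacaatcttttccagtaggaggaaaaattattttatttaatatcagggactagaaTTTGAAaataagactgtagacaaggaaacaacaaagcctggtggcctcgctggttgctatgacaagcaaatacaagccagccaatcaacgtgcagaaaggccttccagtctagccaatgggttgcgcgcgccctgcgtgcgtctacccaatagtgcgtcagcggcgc
The letters lie from 18 to 13 bases before the Cdc20 start and from 167 to 162 before the Ccnb2 start. They were in this window of 14 of the 43 higher mitosis genes with a promoter in the table (32.6%) and of 4934 of all 27025 genes (18.3%). Here too a match describes letters only, and whether either stretch acts as such a region was not tested.

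Cell cycle inhibitors and p53 targets were mixed, with 6 of 36 higher and 8 lower. Gadd45a, a stress and DNA damage gene, was at 3.37 and 3.05, the kinase Plk2 at 2.08 and 1.93 and the p53 relative Trp63 at 1.90 and 1.87. Gadd45g was at -3.04 and -2.95, the antiproliferative gene Btg2 at -2.24 and -2.44 and Trp53inp1 at -2.15 and -2.25. The Gadd45 paralogs thus lay on opposite sides. Of 25 Myc and chromatin regulators 5 were higher and 4 lower. The helicase gene Hells was at 1.93 and 2.11, Myc at 1.54 and 1.63 and Uhrf1 at 1.54 and 1.62, whereas Mycl was at -1.94 and -1.93, the Myc antagonist Mxd4 at -1.74 and -1.84 and Chd7 at -1.31 and -1.36. Both other Chd7 probes and 1 of the 2 others of Mxd4 lay within 0.5 of 0.

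Astrocyte genes were lower. Of 44 measured, 26 were 2-fold lower and 2 higher, and their median of -1.54 was the lowest of the 40 lists. Besides Cpe and Ttyh1, Apoe, the main brain apolipoprotein, was at -3.98 and -3.92, with the wild-type signal saturated on 1 array. The potassium channel gene Kcnj10 was the other way at 1.23 and 1.15. Aldoc, a glycolytic enzyme of astrocytes, was at -2.36 and -2.07 and S100b at -1.94 and -1.86. The glutamate transporter Slc1a2 was at -1.68 and -2.05, but its 4 other probes lay between -0.31 and -0.01. With median centring Aldoc, S100b, Slc1a2 and Kcnj10 were no longer 2-fold on both arrays. Gfap, the glial filament gene, was dim, above background in mutant RNA on 1 array, at -0.70 and -0.98, and Aqp4 was at -0.02 in the mean, with its 2 other probes at -0.95 and -0.54. Summed over 7 astrocyte markers, normalised intensity was 18623 and 15866 in mutant RNA against 113709 and 90327 in wild-type RNA. Apoe made up most of the wild-type sums, and without it they were 14159 and 12658 against 43386 and 41619.

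The neural stem cell and radial glia list had 4 of 36 members higher and 9 lower, with a median of -0.32. Nes, the intermediate filament gene by which neural stem cells are recognised, was at -0.28 and -0.31, Vim at -0.41 and -0.73 and Fabp7 at -0.50 and -0.98. All 8 stem cell markers read were above background in both RNAs. That does not check the label, since 81.2% to 82.1% of all probes were too. In mutant RNA all 6 microglia and blood markers were as well. Sox2 was at -1.47 and -1.39, with its other probe at -0.02, and Sox9, a factor of glial fate, at -2.75 and -2.80, with 1 of 2 other probes at -0.36. Lrig1, which restrains EGF receptor signalling, was at -2.43 and -2.48. Egfr was at -0.90 and -1.06, with 1 of its 5 other probes of opposite sign, and Hbegf, a ligand of that receptor, at 1.35 and 1.52. Melk, a kinase of proliferating progenitors, was at 2.05 and 2.11, Gli3 at 1.55 and 1.38, and Hmga2 at 1.49 and 1.06, although both other Hmga2 probes lay within 0.5 of 0.

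Of 40 neuronal genes 0 were higher, 11 lower and 29 neither, with a median of -0.22. Nsg2, a neuronal endosome protein, was at -3.22 and -3.68, the zinc finger factor Myt1 at -3.03 and -2.62 and the microtubule gene Map2 at -2.72 and -2.44, with 1 of its 3 other probes at -0.27. Tubb3 was at -1.04 and -0.99 and Dcx at -2.13 and -1.46, with the other Dcx probe at 0.08. The neuron markers Stmn2, Rbfox3 and Snap25 were at -0.02, 0.09 and 0.06 in the mean. Their wild-type intensity was only 71.5 to 128, which includes the offset of 50, so a lower level could hardly show. Among 10 proneural factors measured, 0 were higher and 2 lower, Tcf12 at -1.52 and -1.91 and Tcf4 at -1.39 and -1.27, both broadly expressed partners of the proneural proteins. Of the other probes, 2 of 3 of Tcf12 and 1 of 2 of Tcf4 lay within 0.5 of 0, and the lowest of each was at -1.08 and -1.03.

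The oligodendrocyte lineage list had 8 of 29 lower and 2 higher. Gpr17, a receptor of committed precursors, was at -4.25 and -4.20, with its other probe at 0.03. Omg was at -3.25 and -3.04 and the connexin Gjc3 at -3.06 and -2.91. Cspg4, the NG2 proteoglycan of oligodendrocyte progenitors, was higher at 2.05 and 2.06, and Nkx2-2 at 1.35 and 1.55, while Pdgfra, the growth factor receptor of the same progenitors, was at -1.79 and -1.78. For Cspg4 1 of 2 other probes was at 0.25, and the other Pdgfra probe was at 0.10. Olig1, a factor of the lineage, was at -1.06 and -1.25, with Olig2 at -0.67 and -0.69. Ependymal genes had 2 of 18 lower, the cilia regulator Foxj1 at -1.88 and -1.91 and Ccdc39 at -1.20 and -1.19, and 1 higher, Sostdc1 at 1.01 and 1.11. The other Ccdc39 probe was at -0.42.

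Markers of cells outside the neural stem cell lineage were read as well. Of 19 microglia and blood genes 0 were 2-fold on both arrays, and 6 defining markers summed to 590 and 580 in mutant RNA against 589 and 534 in wild-type RNA, an intensity that includes the offset of 50 for each. Endothelial, mural and fibroblast genes had 1 of 21 higher and 1 lower, where 4.52% of all genes were higher and 6.16% lower. The higher one was Cspg4 and the lower one Pdgfra, which the oligodendrocyte list holds too. Markers of these cells, 5 in all, summed to 3421 and 3477 against 5546 and 5428. Most of that came from Acta2 at -0.78 and -0.70, whose 3 other probes lay within 0.5 of 0. Neural crest and Schwann cell genes had 2 of 15 higher and 2 lower, with Pmp22 at 2.31 and 2.20, the transcription factor Pou3f1 at 1.91 and 2.04, and the endothelin receptor Ednrb at -2.41 and -2.44. Its other probe put Pmp22 at 0.14.

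**Figure D4:**
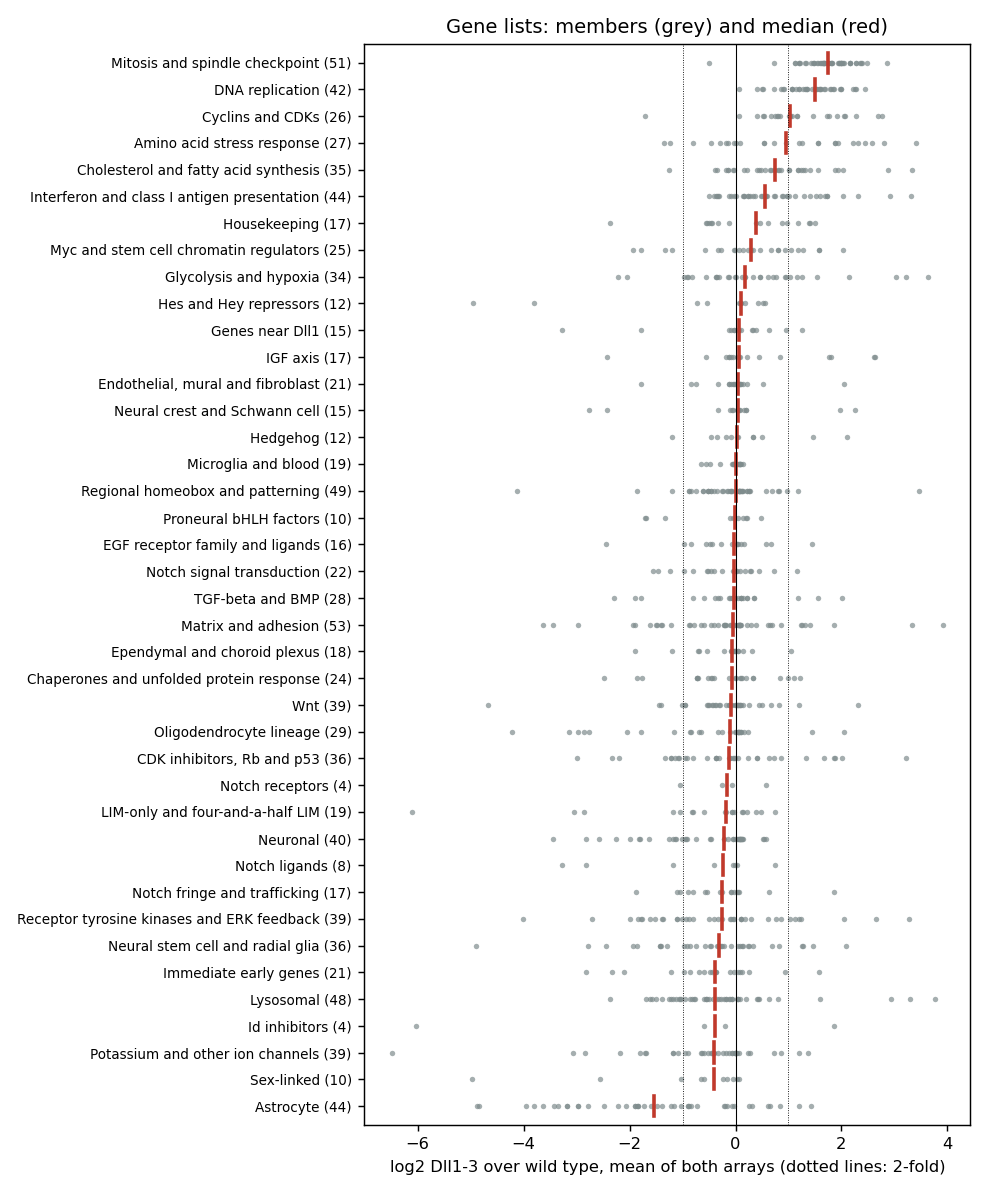
Log2 Dll1-3 over wild type, mean of both arrays (horizontal axis), of the measured members of 40 gene lists (grey points), with the list median as a red bar and the number measured in brackets. Mitosis genes have the highest median, 1.75, and astrocyte genes the lowest, -1.54.

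In the amino acid stress response, 13 of 27 members were 2-fold higher, 2 were lower and 12 neither, with a median of 0.95. The transcription factor Atf4 drives this response when amino acids are short, and it was itself at 1.38 and 1.72. Besides the pseudokinase Trib3, Chac1, which degrades glutathione, was at 2.89 and 2.72 and asparagine synthetase, Asns, at 2.61 and 2.54. The amino acid transporters Slc7a3 and Slc7a11 were lower, at -1.38 and -1.33 and at -1.20 and -1.27, with 1 of the 3 other Slc7a11 probes at -0.25. The Asns promoter is shown because Asns is the textbook target of this response. It is again the 250 bases before the start, from RefSeq GRCm38.p6, with the motif TGATGNAA (both strands) of Atf4 and its partners in capitals.
Asns, chr6:7693210-7693459, - strand: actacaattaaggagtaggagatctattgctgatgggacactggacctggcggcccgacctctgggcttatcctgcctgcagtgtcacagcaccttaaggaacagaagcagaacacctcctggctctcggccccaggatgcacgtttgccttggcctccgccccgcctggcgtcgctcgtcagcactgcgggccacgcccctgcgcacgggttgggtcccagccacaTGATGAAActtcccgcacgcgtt
The motif lies from 23 to 16 bases before the Asns start. It was in the window of 4 of the 11 higher members with a promoter in the table (36.4%), of 8 of 23 of all measured members (34.8%) and of 1056 of all 27025 genes (3.91%). The lower member with a promoter in the table also held it.

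Cholesterol and fatty acid synthesis genes had 12 of 35 higher and 1 lower, with a median of 0.74. Besides Lpl, the sterol carrier Stard4 was at 3.07 and 2.69. The desaturase Fads2 was at -1.34 and -1.18. Interferon and class I antigen presentation genes had 12 of 44 higher and 0 lower, with a median of 0.56. Besides Cxcl10, Oasl2 was at 2.85 and 2.99 and Ifit1 at 2.20 and 2.42, each above background in wild-type RNA on 1 of the 2 arrays. The class I genes of this list were not among the higher members: H2-K1 was at -0.41 and -0.30 and H2-D1 at -0.06 and 0.07. Among 34 glycolysis and hypoxia genes 6 were higher and 2 lower. Ndrg1 was above, and the carbonic anhydrase Car14 at 3.32 and 3.12 and the oxygen sensor Egln3 at 2.98 and 3.08 were with it, while Car2 was at -2.01 and -2.08. Of 48 lysosomal genes 4 were higher and 10 lower. With Arsa stood the proteases Ctsc at 3.47 and 3.12 and Ctsz at 3.05 and 2.82, while the glucuronidase Gusb was at -2.58 and -2.16, Ids at -1.67 and -1.70 and Ppt1 at -1.64 and -1.61. All 3 other Ids probes and 2 of the 3 others of Ppt1 lay within 0.5 of 0. Chaperones had 1 of 24 higher, Hsp90aa1 at 1.06 and 1.15, and 3 lower, where 4.52% of all genes were higher and 6.16% lower. The lower chaperones were Hspb8 at -2.62 and -2.35, Hspa1a at -1.77 and -1.97 and Dnajb9 at -1.83 and -1.72. For Hspa1a 1 of its 3 other probes was at -0.23.

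Among receptor tyrosine kinases and feedback genes of ERK signalling, 5 of 39 were higher and 11 lower. The higher ones were feedback inhibitors and targets of ERK, led by Spry4 at 3.32 and 3.22, the phosphatase Dusp6 at 2.74 and 2.55 and Spry1 at 2.14 and 1.95, with Spred2 and Etv5. The lowest were receptors: Epha4, above background in mutant RNA on 1 array, at -4.26 and -3.77, with its other probe at -1.50, Kit at -2.87 and -2.55 and Ephb2 at -2.04 and -1.95, with its other probe at -0.30. Immediate early genes had 1 of 21 higher, Myc, and 4 lower, with Fos at -2.91 and -2.72 and Jund at -2.22 and -1.99. In the insulin-like growth factor list 4 of 17 were higher and 1 lower. The binding protein gene Igfbp2 was at 2.69 and 2.58 and Igf2bp3, an RNA-binding protein of fetal tissue, at 2.34 and 2.91, with Igf2bp2 at 1.65 and 1.96, while Igfbp7 was at -2.58 and -2.28.

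Of 128 genes in 4 lists of patterning pathways and factors, 17 (13.3%) were 2-fold on both arrays in either direction, near the 10.7% of all genes. Of 28 TGF-beta and BMP genes 2 were higher and 3 lower: the receptor Tgfbr2 was at 1.90 and 2.13, with its other probe at 0.11, Tgfb3 at 1.52 and 1.60, Tgfb2 at -2.35 and -2.25 and Smad1 at -1.96 and -1.85. Bmpr1b, not well above background in the mutant channels, was at least 3.46-fold lower. Of 39 Wnt genes 2 were higher, the receptor Fzd1 at 2.31 and 2.33 and the inhibitor Wif1 at 1.24 and 1.15, and 3 lower, Apcdd1, Tcf7l1 at -1.52 and -1.37 and Fzd3 at -1.29 and -1.53. Both other Fzd3 probes lay within 0.5 of 0. Of 12 Hedgehog genes 2 were higher, Gas1 at 2.24 and 1.97 and Gli3, and 1 lower, the receptor Ptch1 at -1.12 and -1.28, with its other probe at -0.22. Of 49 regional homeobox genes 1 was higher and 3 lower. Hoxa7 had intensities of 3761 and 4012 against 315 and 395. Other genes of its cluster, given after their values were seen, did not share one level. Hoxa10 was at 2.48 and 2.75, while Hoxa6 and Hoxa9, next to Hoxa7 in the cluster, were at 0.24 and 0.10 and at 0.16 and 0.17. Hoxa4 was at 1.41 and 0.94, Hoxa5 at 1.12 and 0.82, and Hoxa2, Hoxa3 and Hoxa13 at 0.26, -0.11 and -0.09 in the mean. Dbx2, a factor of ventral spinal progenitors, was at -4.11 and -4.15, Pax6 at -1.93 and -1.79, with 1 of 2 other probes of opposite sign, and Meis2 at -1.10 and -1.29.

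Matrix and adhesion genes had 7 of 53 higher and 11 lower. Fkbp10, Spp1 and the hyaluronan receptor Cd44, at 1.91 and 1.79, led the higher ones, and 1 of the 2 other Cd44 probes was at 0.01. The metalloproteinase inhibitor Timp3 was at -3.64 and -3.62, the integrin Itgb8 at -3.61 and -3.29, above background in mutant RNA on 1 array and with 2 of its 3 other probes within 0.5 of 0, and the proteoglycan Ncan at -3.04 and -2.92. LIM proteins had 4 of 19 lower and 0 higher. After Fhl1 came Lmo1 at -3.25 and -2.86 and Lims2 at -3.16 and -2.58. Ion channel genes had 9 of 39 lower and 2 higher. After Kcnd2 came the glutamate receptors Gria2 at -3.23 and -2.89, with its other probe at -0.29, and Grm3 at -2.81 and -2.86.

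Of 7 Y-linked genes measured, 2 were lower in mutant RNA. Eif2s3y was at -5.24 and -4.71 and Ddx3y at -2.77 and -2.33, while Xist, which marks the inactive X chromosome, was at 0.26 and -0.37. The sex of the mice is not stated in the sources used here, and the part of sex in other values was not tested. By chromosome, medians lay between -0.09 (chromosome 8) and 0.07 (chromosome 18) on the autosomes and at -0.08 on the X chromosome. There 83 of 801 genes (10.4%) were lower, against 101 of 1065 (9.48%) on chromosome 8 and 33 of 556 (5.94%) on chromosome 18. Of 15 genes listed near Dll1, 1 was higher, Tcte3 at 1.32 and 1.19, and 2 lower, Dll1 and Fam120b at -1.88 and -1.70. Of 17 housekeeping genes 4 were higher, among them Tfrc at 1.45 and 1.57 and Ppia at 1.28 and 1.51, and 1 was lower, Gusb.

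The named genes whose arrays lay farthest apart were Neurod1, at -3.06 and -0.31, and 5 genes saturated in both channels on both arrays, Grn, Lars2, Pigt, Ptprz1 and COX2, whose ratio of -2.37 and 0.64 is that of full-scale signals and measures no difference. Other passing probes were at -0.85 for Grn and 0.55 for Pigt, and the 3 of Ptprz1 lay between -2.15 and -0.49. Probes of a gene did not always give like values. Of the 1027 higher genes, 465 had other probes that passed the filter, and for 421 of these all had the same sign, while for 153 all were at least 2-fold in the mean. Of the 1399 lower genes, these counts were 679, 541 and 126. Among the 159 named genes that were 2-fold on both arrays, 77 had other probes, and for 36 of them at least 1 lay within 0.5 of 0, among which 11 had a probe of opposite sign.

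Values in the Dll1-5 line are given beside those of Dll1-3 as they stand, since each line was read as 1 pooled replicate and the lines may share wild-type RNA. Dll1 itself was at -1.65 and -1.64 there, Fhl1 at -2.40 and -2.72, Hey1 at -1.97 and -1.93 and Arsa at 1.83 and 2.12, all on the same side as in Dll1-3. Hes5 was at -4.59 and -4.81 and Id4 at -6.15 and -5.51. The genes at both ends of the Dll1-3 range lay far from wild type in Dll1-5 too. Scrn1 was at 4.21 and 4.62 there, Fkbp10 at 3.88 and 4.05 and Kcnd2 at -6.25 and -5.92. Some other high Dll1-3 genes were near wild type in Dll1-5. Mical1 was at 0.28 and 0.02, Ctsz at 0.02 and -0.01, Egln3 at 0.42 and 0.35 and Chac1 at 0.21 and 0.10. Mnd1 and Hoxa7 gave no signal well above background in Dll1-5 mutant RNA, and in wild-type RNA on those arrays only on 1 of 2. Their Dll1-5 ratios were near 0, at -0.10 and 0.01 for Mnd1 and at -0.17 and 0.14 for Hoxa7. The median of the interferon list was 0.11 in Dll1-5 and 0.56 in Dll1-3, that of the mitosis list 1.09 and 1.75 and that of the astrocyte list -1.10 and -1.54. None of these differences was tested.

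**Figure D5:**
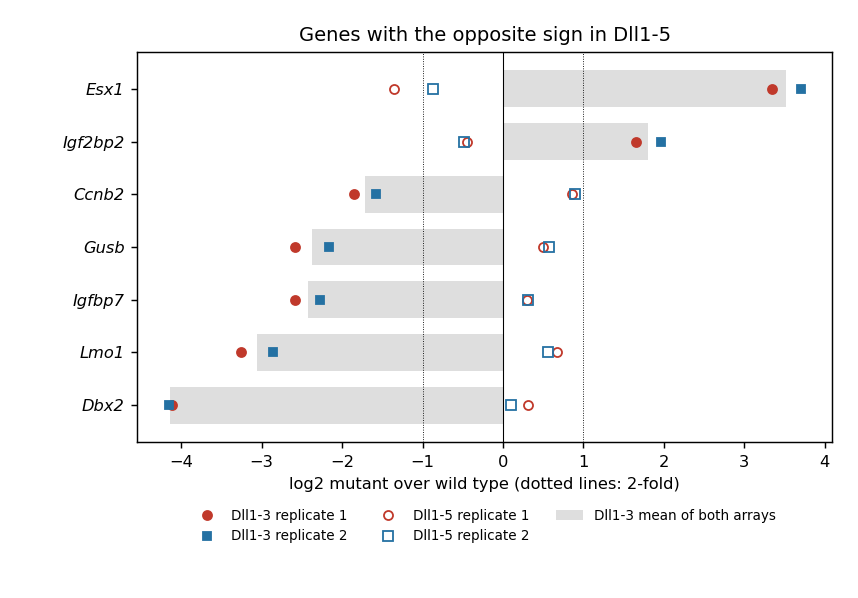
Log2 mutant over wild type (horizontal axis) of 7 named genes that were at least 2-fold on both Dll1-3 arrays (filled points, bars for their mean) and had the opposite sign on both Dll1-5 arrays (open points). Esx1 and Igf2bp2 are higher in Dll1-3 and Ccnb2, Gusb, Igfbp7, Lmo1 and Dbx2 lower.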

How the data were processed

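RNA of mutant and wild-type neurospheres was hybridised to 2-colour Agilent arrays. The authors deposited the scanner's intensity values, the output of Agilent Feature Extraction 8.1.1.1, per the submitters' processing notes, with a log10 ratio of Cy5 over Cy3, as the file headers name it. A value table deposited with them, also log10, is wild type over mutant by its correlation with the scanner ratios (r with mutant over wild type of -0.962 and -0.956 on the Dll1-3 arrays); its column medians were -0.03 and 0.01, how it was centred is not stated in the sources used here, and it served as an alternative only.

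Mean signals were background-corrected with normexp (offset 50, which compresses ratios of dim genes) and normalised by loess within arrays (span 0.3), in limma 3.58.1 and R 4.3.3, and the code was tested on simulated data. Control spots (2256) and outlier spots (50 and 78) were left out and saturated ones kept. Probes well above background in mutant or wild-type RNA on both Dll1-3 arrays passed, and a gene was read from its probe of highest mean intensity. RefSeq accessions named 13663 genes, current symbols 2401 and synonyms 1344, while 5299 have the name in the array file. Intensities in the text are channels after loess and Aquantile, and a bound sets the brighter RNA's mean against the higher of the dim probe's signal and the lowest signal well above background.

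Genes were named by rule: 6 markers, Notch ligands and receptors, Hes, Hey and Id genes, the 16 highest and 16 lowest, up to 3 each way per list, and the 6 whose arrays lay farthest apart, without clones or predicted genes; some genes that the rule names are not reported here, though counts include them. The members, lists and rule were chosen with earlier results of these data known. Alternatives are in the closing section.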

Additional observations from a re-analysis of the deposited data

Results flagged for a closer look

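Among the genes described above and at least 2-fold on both Dll1-3 arrays, 7 had the opposite sign on both Dll1-5 arrays, and none of these differences was tested. On the higher side Esx1 had a Dll1-3 mean of 3.52, and it was at least 2.16-fold lower than wild type in Dll1-5, whose mutant RNA gave no signal well above background for it. Igf2bp2 had 1.81 against -0.44 and -0.48. On the lower side Dbx2 had -4.13 against 0.31 and 0.10, Lmo1 -3.06 against 0.67 and 0.55, and Igfbp7 -2.43 against 0.30 and 0.31. Gusb had -2.37 against 0.50 and 0.57, and the cyclin gene Ccnb2 -1.72 against 0.86 and 0.89.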

How the results depend on the processing

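Against 1027 genes higher and 1399 lower, the scanner software's ratios gave 1614 and 2274, the authors' deposited values 1580 and 2228, and median centring in place of loess 469 and 610; the cause was not tested. A threshold of 1.5-fold gave 2319 and 2744, and 4-fold 137 and 311. Each array alone gave 1180 to 1264 higher and 1643 to 1687 lower. The other alternatives (offset of 10, no background correction, the mean of a gene's probes, outlier spots retained, other filters for dim probes, 2-fold in the mean) stayed within 1.5 times. Taken as separate samples, a reading the design text leaves unsettled, the 4 arrays gave 4587 genes higher and 5498 lower in Dll1-3 at an adjusted p of 0.05 in limma, and 6326 and 7430 with the replicate number, here the dye orientation, as a block, so the block stands for dye, and no pairing of cultures is known. None of the 159 named genes that were 2-fold on both arrays changed sign in their 1746 values under the alternatives for single genes. These alternatives include each array alone, where no sign could change, since the genes were picked for lying to the same side on both. In 565 of the 1746 the value moved beyond the spread of the 2 arrays. With median centring 36 of the 159 were no longer 2-fold on both arrays. Besides Dner, Mib1, Tle4 and Psen2, those given above were Aldoc, Ccdc39, Chd7, Fads2, Fam120b, Fzd3, Gli3, Hbegf, Hmga2, Hsp90aa1, Ids, Jund and Kcnj10. Further ones were Meis2, Mxd4, Olig1, Ppt1, Ptch1, S100b, Slc1a2, Slc7a11, Slc7a3, Smad1, Sox2, Tcf12, Tcf4, Tcf7l1, Tcte3, Tfrc and Wif1. With the mean of a gene's probes 17 were lost, without background correction 1 (Sostdc1) and with both channels above background 1 of 156 (Itgb8). Offsets and signal over background limit the size of the lowest values: Id4 was at -6.04, and at -7.45 by the scanner software's ratios.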
